A study of Rattus norvegicus with 6 samples.

Results

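The genes described here make and read retinoic acid, and there are 9 of them among the 22250 genes of the deposited table: the retinaldehyde dehydrogenases Aldh1a1, Aldh1a2 and Aldh1a3, the retinaldehyde reductase Dhrs3, the retinoic acid carrier Crabp2, the receptors Rara, Rarb and Rarg, and the retinol transporter Stra6. They were found by their symbols. The symbols were chosen from results of the comparison of aged with young donor hearts that were already known. Their values between those groups are therefore given as a description. Calls from the fit of all genes are stated for them below as part of that description and are not evidence about them. RNA-Seq was done on left ventricular myocardium of Sprague-Dawley rats taken on day 1 after heterotopic transplantation, when each heart had been arrested, stored cold and grafted into a young syngeneic recipient. Young donors were 10 weeks old (animals 3, 13 and 15) and aged donors were 1 year old (animals 3, 4 and 7), all of wild-type genotype, and the same number in the 2 groups does not mean the same animal. Each group therefore has 3 hearts. All 6 hearts had been stored and transplanted, so donor age was compared in grafted hearts only, and hearts before storage are not analysed here.

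Retinoic acid is made from vitamin A in a pair of steps. Retinol is first oxidized to retinaldehyde by retinol dehydrogenases such as Rdh10, a step that Dhrs3 runs backwards, and retinaldehyde is then oxidized irreversibly to retinoic acid by the Aldh1a enzymes. The acid enters the nucleus, where it binds receptors of the RAR group (Rara, Rarb, Rarg) that sit on DNA together with an RXR partner, and it is broken down by Cyp26 enzymes. In the embryonic heart, Aldh1a2 in the epicardium is the best known source of the acid, and the Rarb and Dhrs3 genes are known in many tissues as genes that retinoic acid itself switches on.

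Libraries held 21457509 to 24560869 reads counted on genes. Levels are given as CPM, reads of a gene per 1000000 library reads after TMM scaling, which balances the bulk of the genes between hearts. The 13 mitochondrial genes took 11.9% to 21.7% of the reads in young donor hearts and 6.56% to 10.3% in aged donor hearts. Young animal 15 stood apart from the other young donor hearts, with a summed level of 12 cardiomyocyte markers of 14100 CPM against 96310 CPM in animal 3 and 106500 CPM in animal 13. Summed cardiomyocyte markers were 604 CPM in aged animal 3, 8251 CPM in aged animal 4 and 8046 CPM in aged animal 7, so the labelled myocardium held few cardiomyocyte transcripts in aged animal 3. Aged animal 4 also carried the most transcripts of an atrial marker list, 1533 CPM against 6.44 to 394 CPM in the other 5 hearts. Nppa alone was at 1370 CPM there. The atrial marker Myl7 was at 69.1 CPM in aged animal 4 and at 49.7 CPM in young animal 3. In bulk tissue, fewer cells of a type and less RNA per cell cannot be told apart. A gene is called past the limits here when edgeR's quasi-likelihood fit gave it an unadjusted p-value under 0.05 and a fold change over 1.5 or under 0.67, the thresholds of the study. Of 13784 genes tested, 32.2% were past the limits, 13.2% higher and 19.0% lower in aged donor hearts. With Benjamini-Hochberg adjustment 0 genes (0%) had an adjusted p-value under 0.05 in edgeR, against 4731 with an unadjusted p-value under 0.05, while DESeq2 gave 3592, limma-voom 8416 and edgeR without young animal 15 gave 6815.

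Of the 9 genes, 8 had enough reads to be fitted. Rara was past the limits and higher in aged donor hearts, Aldh1a1, Aldh1a3, Dhrs3 and Rarb were past the limits and lower, and Aldh1a2, Crabp2 and Rarg were not past them. In the same 5 genes past the limits the groups did not overlap, that is, each aged donor heart was above or below each young donor heart. Over all genes tested the aged donor hearts were all above in 21.0% and all below in 20.6%. No other gene of the table overlapped any of the 9 in position.

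**Figure D1:**
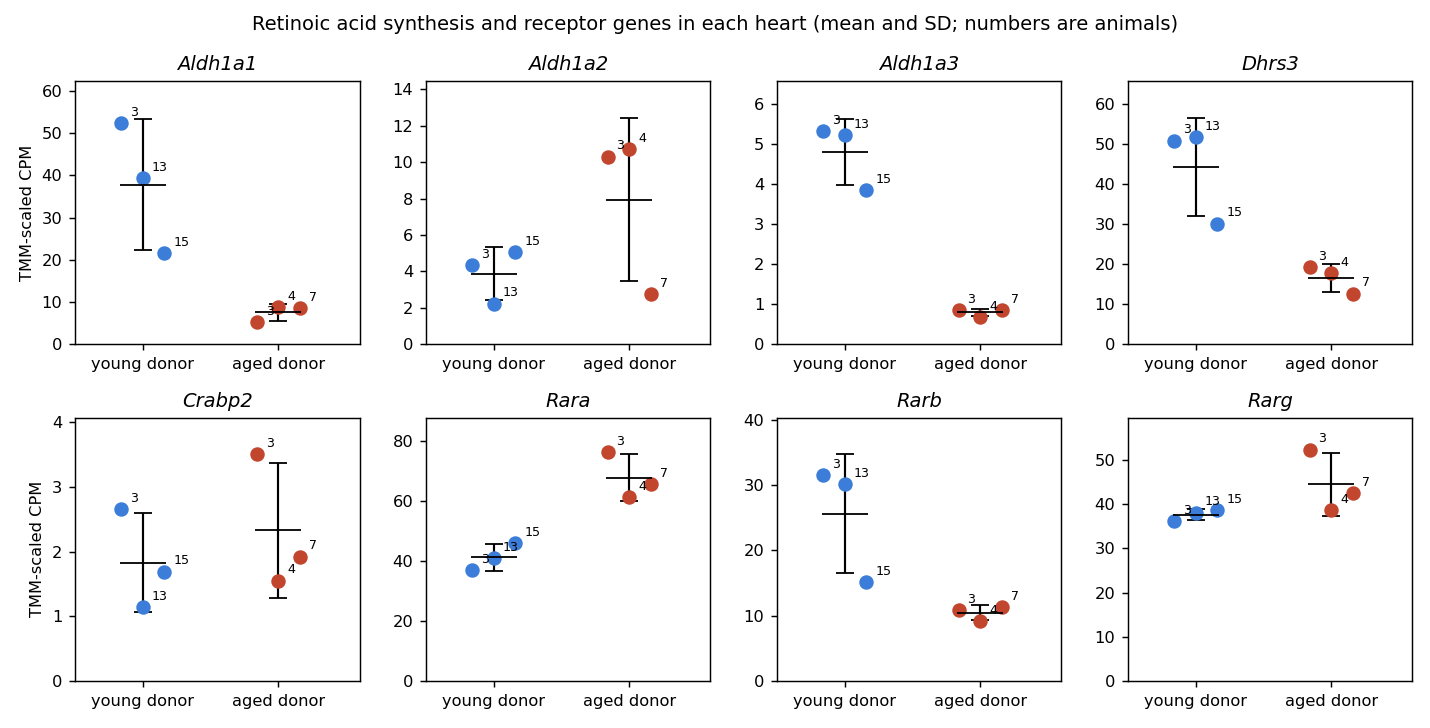
Level of the 8 fitted genes in each of the 6 hearts, in TMM-scaled CPM on axes that start at 0, with points for hearts (numbered by animal) and lines for the group mean and SD (n = 3 per group). The 3 aged donor hearts lie below all young donor hearts for Aldh1a1, Aldh1a3, Dhrs3 and Rarb and above them for Rara, and the groups overlap for Aldh1a2, Crabp2 and Rarg.

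Aldh1a1, the most abundant retinaldehyde dehydrogenase of young donor hearts, lies on chromosome 1 (Rnor_6.0, 238222521 to 238264330, plus strand). Its level was 52.5, 39.3 and 21.6 CPM in young animals 3, 13 and 15, and 5.29, 8.76 and 8.62 CPM in aged animals 3, 4 and 7. The 3 aged donor hearts were close to each other and far below the lowest young donor heart, young animal 15. The mean was 37.8 ± 15.5 CPM (SD, n = 3) in young and 7.56 ± 1.97 CPM (SD, n = 3) in aged donor hearts. The log2 fold change was thus -2.32 (SE 0.39), or 5.0-fold lower. The near-identical rodent gene Aldh1a7, with which reads of Aldh1a1 could be confused, had 0 to 10 reads per heart, against 161 to 868 for Aldh1a1.

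Aldh1a3, an enzyme of the same reaction (chromosome 1, 127301128 to 127337882, minus strand), was scarce. It was counted at 5.32, 5.21 and 3.84 CPM in young animals 3, 13 and 15 and at 0.854, 0.682 and 0.843 CPM in aged animals 3, 4 and 7, from 82 to 93 reads and from 18 to 26 reads. Each group was tight and the gap between them was wide. The log2 fold change was -2.59 (SE 0.31), a 6.0-fold difference and the largest in size among the 8 fitted genes.

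Aldh1a2 (chromosome 8, 77640222 to 77719489, plus strand) went the other way in part of the aged donor hearts. It stood at 4.36, 2.23 and 5.04 CPM in young animals 3, 13 and 15, and at 10.3, 10.7 and 2.76 CPM in aged animals 3, 4 and 7. Aged animals 3 and 4 were above every young donor heart, whereas aged animal 7 was within the young range, so the groups overlapped. Its log2 fold change was 1.03 (SE 0.58). Without aged animal 7 it was 1.45 and the gene was then past the limits, and without young animal 13 it was 0.76.

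The balance among the 3 enzymes was compared within each heart from FPKM, the count per kilobase of gene length and per library size, which allows levels of different genes to be set side by side. Aldh1a1 made up 87.2%, 87.6% and 74.4% of the summed Aldh1a FPKM in young animals 3, 13 and 15, and 33.1%, 44.5% and 72.7% in aged animals 3, 4 and 7. Aldh1a2 made up 7.07%, 4.85% and 17.0% in the young and 63.4%, 53.3% and 22.7% in the aged donor hearts. In aged animals 3 and 4 Aldh1a2 was thus the most abundant of the 3 transcripts, and in all other hearts Aldh1a1 was. Of the terms of that share, Aldh1a1 was at 10.6 to 18.3 FPKM in young and 2.97 to 4.53 FPKM in aged donor hearts, and Aldh1a2 at 0.722 to 2.43 FPKM and 1.42 to 5.68 FPKM, ranges that overlap.

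**Figure D2:**
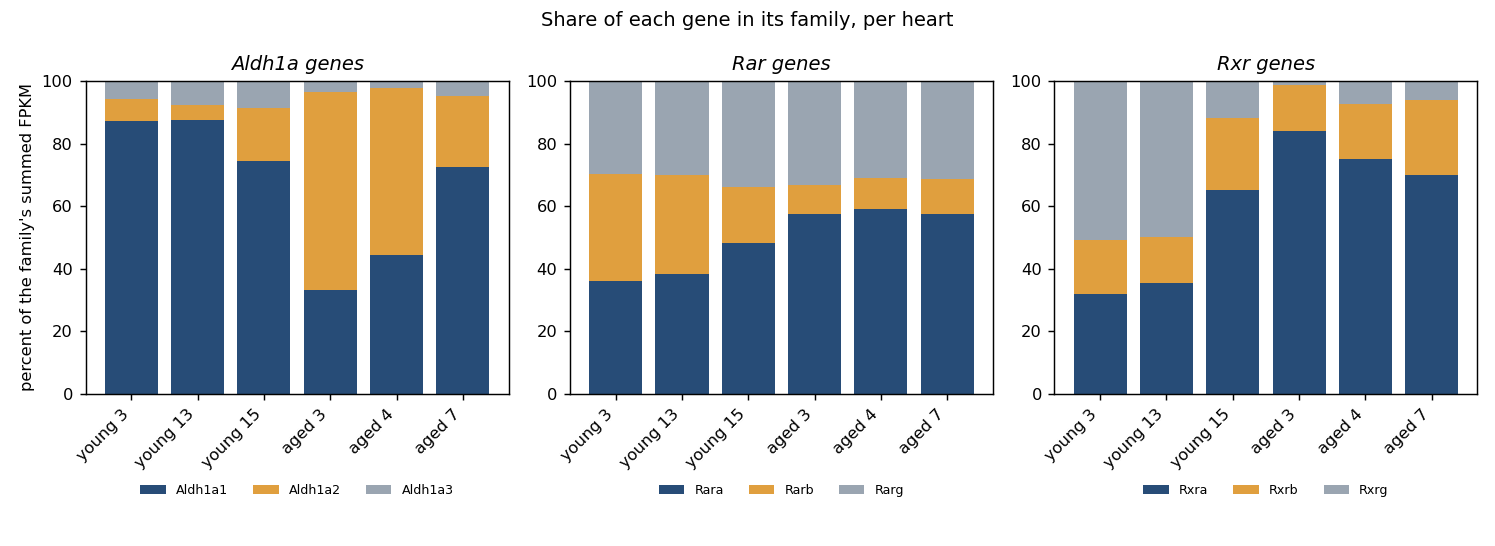
Share of each gene in the summed FPKM of its family in each heart, as stacked bars from 0 to 100 percent, for the Aldh1a, Rar and Rxr genes. Aldh1a2 took 63.4% and 53.3% in aged animals 3 and 4 against at most 17.0% in young donor hearts, Rarb took 17.7% to 34.4% in young and 9.21% to 11.1% in aged donor hearts, and Rxrg 11.8% to 50.9% and 1.24% to 7.38%.

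The promoters of the 3 enzyme genes are shown because the profile of Aldh1a2 over the 6 hearts differed from those of Aldh1a1 and Aldh1a3. They come from RefSeq on GRCr8, a later build than that of the table, and each run is the 250 bases before the annotated start, with matches to a retinoic acid receptor hexamer in capitals, searched on either strand as AGGTCA itself, as the variant AGTTCA, as the variant GGGTCA and as the variant GGTTCA. Matches to a GC box, searched as GGGCGG, and to a TATA box, searched as TATAAA, are in capitals too. Aldh1a1 lies at chr1:227537370-227537619 on the plus strand, Aldh1a2 at chr8:80758391-80758640 on the plus strand and Aldh1a3 at chr1:129427644-129427893 on the minus strand.
Aldh1a1: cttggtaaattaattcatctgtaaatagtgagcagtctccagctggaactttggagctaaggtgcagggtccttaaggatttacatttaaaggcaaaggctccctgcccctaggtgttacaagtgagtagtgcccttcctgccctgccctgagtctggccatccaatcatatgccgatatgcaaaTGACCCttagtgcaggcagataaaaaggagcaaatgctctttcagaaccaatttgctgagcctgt
Aldh1a2: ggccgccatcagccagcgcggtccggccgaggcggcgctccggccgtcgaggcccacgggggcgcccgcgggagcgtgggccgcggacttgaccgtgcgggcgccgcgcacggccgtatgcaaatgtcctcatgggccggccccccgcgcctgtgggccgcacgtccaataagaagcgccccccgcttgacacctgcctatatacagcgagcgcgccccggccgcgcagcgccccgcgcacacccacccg
Aldh1a3: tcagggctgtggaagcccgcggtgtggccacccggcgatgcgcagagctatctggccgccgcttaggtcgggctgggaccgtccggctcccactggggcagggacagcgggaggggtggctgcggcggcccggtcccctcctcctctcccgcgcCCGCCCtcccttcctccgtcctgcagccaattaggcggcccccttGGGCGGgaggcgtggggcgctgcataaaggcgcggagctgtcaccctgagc
With the 50 bases after the start included, the GC content was 48.3% for Aldh1a1, 76.0% for Aldh1a2 and 74.3% for Aldh1a3, against a median of 51.7% over 33469 promoters of that length. The Aldh1a1 window held 1 receptor hexamer and no GC box, the Aldh1a2 window 1 GC box after the start, and the Aldh1a3 window 3 GC boxes. A hexamer was found in 44.4% of all promoters, a GC box in 33.1% and a TATA box in 14.2%, so these matches are common letters and only describe the windows.

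Dhrs3 turns retinaldehyde back into retinol (chromosome 5, 162808646 to 162843383, plus strand). Its level was 50.8, 51.7 and 30.1 CPM in young animals 3, 13 and 15 and 19.2, 17.7 and 12.6 CPM in aged animals 3, 4 and 7. The lowest young donor heart was again animal 15, and all aged donor hearts were below it. The log2 fold change was -1.42 (SE 0.29), or 2.67-fold lower.

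Rdh10, the retinol dehydrogenase of the opposite step and not 1 of the 9 genes, was measured at 9.92, 9.54 and 9.25 CPM in young and at 29.0, 14.7 and 34.9 CPM in aged donor hearts. It rose past the limits, with a log2 fold change of 1.46 (SE 0.34, adjusted p = 0.0916 in edgeR), and was higher in 3 of 3 aged donor hearts. That adjusted p-value is the smallest in the edgeR fit and is shared by many genes, so here and below it does not rank them. Within a heart, Rdh10 FPKM over Dhrs3 FPKM was 0.138, 0.130 and 0.217 in the young and 1.07, 0.587 and 1.95 in the aged donor hearts, so the reductase transcript was the more abundant of the pair in every young donor heart and in aged animal 4, and Rdh10 in aged animals 3 and 7.

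Crabp2, which hands retinoic acid to its receptor in the nucleus (chromosome 2, 187322416 to 187326789, plus strand), was low in every heart. It was at 2.66, 1.14 and 1.69 CPM in young animals 3, 13 and 15 and at 3.51, 1.55 and 1.92 CPM in aged animals 3, 4 and 7. The groups overlapped over most of their range, and the log2 fold change was 0.35 (SE 0.48), which became -0.07 without aged animal 3. A second row of the table that carries the same symbol, 537 bases long on chromosome 2, had 0 reads in all hearts. Stra6, the membrane receptor that takes up retinol from its blood carrier (chromosome 8, 62925357 to 62944437, plus strand), had 3, 2 and 2 reads in the young and 0, 7 and 0 reads in the aged donor hearts. It was not fitted, and a count of 0 there allows up to 3 counts, which is 0.0985 CPM in aged animal 3 and 0.115 CPM in aged animal 7.

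Rara, the receptor found in most tissues (chromosome 10, 86860685 to 86884210, plus strand), was at 36.8, 40.8 and 45.9 CPM in young animals 3, 13 and 15 and at 76.3, 61.3 and 65.6 CPM in aged animals 3, 4 and 7. The spread within each group was small, at 41.2 ± 4.54 CPM (SD, n = 3) in young and 67.7 ± 7.75 CPM (SD, n = 3) in aged donor hearts. This made a log2 fold change of 0.72 (SE 0.17), or 1.65-fold higher, not far beyond the fold limit.

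Rarb, the receptor whose gene is a classical target of retinoic acid (chromosome 15, 10120206 to 10262599, plus strand), was at 31.5, 30.2 and 15.1 CPM in young animals 3, 13 and 15. In aged animals 3, 4 and 7 it was at 10.9, 9.14 and 11.3 CPM. Young animal 15 lay nearer to the aged donor hearts than to the other young donor hearts. The log2 fold change was -1.29 (SE 0.32), or 2.44-fold lower, and it was -1.52 without young animal 15.

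Rarg (chromosome 7, 143839980 to 143863186, minus strand) was at 36.2, 38.1 and 38.6 CPM in young animals 3, 13 and 15 and at 52.4, 38.6 and 42.6 CPM in aged animals 3, 4 and 7. The young donor hearts differed by little, aged animal 4 met the highest of them, and the groups touched. The log2 fold change was 0.24 (SE 0.17). With scaling by library totals alone, which moved the median of all genes from 0.02 to 0.46 on the log2 scale, Rarg stood at 0.69 and was past the limits.

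The receptors were also compared within each heart. Rara made up 36.0%, 38.3% and 48.3% of the summed Rar FPKM in young animals 3, 13 and 15, and 57.7%, 59.1% and 57.6% in aged animals 3, 4 and 7. Rarb made up 34.4%, 31.7% and 17.7% in the young and 9.21%, 9.85% and 11.1% in the aged donor hearts, while Rarg kept between 29.6% and 34.0% in all 6. Rara over Rarb, a ratio that does not depend on the library scaling, was 1.05, 1.21 and 2.72 in the young and 6.26, 6.0 and 5.18 in the aged donor hearts, so young animal 15 lay between the other young and the aged donor hearts.

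The receptors act on paired hexamers, and the classical element is a direct repeat of the hexamer with 5 bases between the copies, called DR5. Among the RefSeq promoters of the 9 genes (10 entries, since Rarg has 2), only the Rarb promoter held a DR5 of the hexamers given above. It lies at chr15:11336416-11336432 on GRCr8, plus strand, from base 25 to base 41 counted from the annotated start as base 1. It is printed here, with the hexamers in capitals and short flanks (chr15:11336410-11336439), because Rarb is the receptor gene that was lower.
Rarb: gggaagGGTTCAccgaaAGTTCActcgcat
A DR5 was found in 128 of the 33469 promoters (0.382%), a repeat with 1 base between the copies (DR1) in 0.233% and one with 2 bases (DR2) in 0.170%, counting both strands. No DR1 or DR2 was found in the windows of the 9 genes. Dhrs3 and the other windows without a DR5 lack only these letters in these 300 bases.

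Ranked by FPKM in young donor hearts, the order was Dhrs3 (mean 17.6 FPKM), Aldh1a1 (14.0), Rara (10.4), Rarg (7.89), Rarb (6.76), Crabp2 (1.97), Aldh1a2 (1.55), Aldh1a3 (1.19) and Stra6 (0.0393). In this order the ranges of neighbours over the 3 hearts overlapped except between Rarb and Crabp2 and between Aldh1a3 and Stra6. In aged donor hearts the order was Rara (23.2 FPKM), Rarg (12.8), Dhrs3 (9.39), Aldh1a2 (4.16), Aldh1a1 (4.0), Rarb (3.99), Crabp2 (3.48), Aldh1a3 (0.277) and Stra6 (0.0365). There the ranges of neighbours were apart between Rara and Rarg, between Dhrs3 and Aldh1a2, between Crabp2 and Aldh1a3 and between Aldh1a3 and Stra6. Dhrs3 and Aldh1a1 thus headed the order in young donor hearts, and Rara and Rarg in aged donor hearts.

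How alike the profiles of the genes were over the hearts was then described. Likeness was measured as the root mean square difference of log2 CPM, centred over the 6 hearts, so that a smaller value means a closer profile. It was not scaled by the spread of a gene, so genes that vary little over the hearts get small values whatever their pattern. Rarb and Dhrs3 were 0.277 apart, Aldh1a1 and Aldh1a3 0.396, and Rara and Rarg 0.255, whereas Aldh1a1 and Aldh1a2 were 1.84 apart. Young animal 15 was lower than the other young donor hearts by unequal amounts: the mean of young animals 3 and 13 was 2.13-fold above it for Aldh1a1, 2.04-fold for Rarb, 1.70-fold for Dhrs3 and 1.37-fold for Aldh1a3. Animal 15 was in turn 4.84-fold above the aged mean for Aldh1a3, 2.85-fold for Aldh1a1, 1.82-fold for Dhrs3 and 1.44-fold for Rarb. Without it the log2 fold changes were -2.57 for Aldh1a1, -2.68 for Aldh1a3, -1.59 for Dhrs3 and 0.84 for Rara.

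Among all genes tested, the closest profiles to Aldh1a1 were those of Apol9a (0.163), Rcor2l1 (0.190) and Ppfibp2 (0.200). Aldh1a3 was closest to Ms4a2 (0.136), AABR07007068.1 (0.144) and Rab40b (0.228), and Aldh1a2 to Spint1 (0.199), Etnk2 (0.282) and Tcf23 (0.301). The nearest genes to the receptors were Vps9d1 (0.0489), Stk4 (0.0508) and Mta2 (0.0651) for Rara, Guf1 (0.0522), Cnnm3 (0.0668) and Bbs2 (0.0758) for Rarb, and Lipa (0.0297), Med23 (0.0429) and Dpp8 (0.0438) for Rarg. Among these nearest genes, Spint1 (0.254 to 1.55 CPM) and Ms4a2 (0.23 to 0.296 CPM in aged donor hearts) were scarce. The likeness values describe 6 hearts that share their libraries and carry no test.

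**Figure D3:**
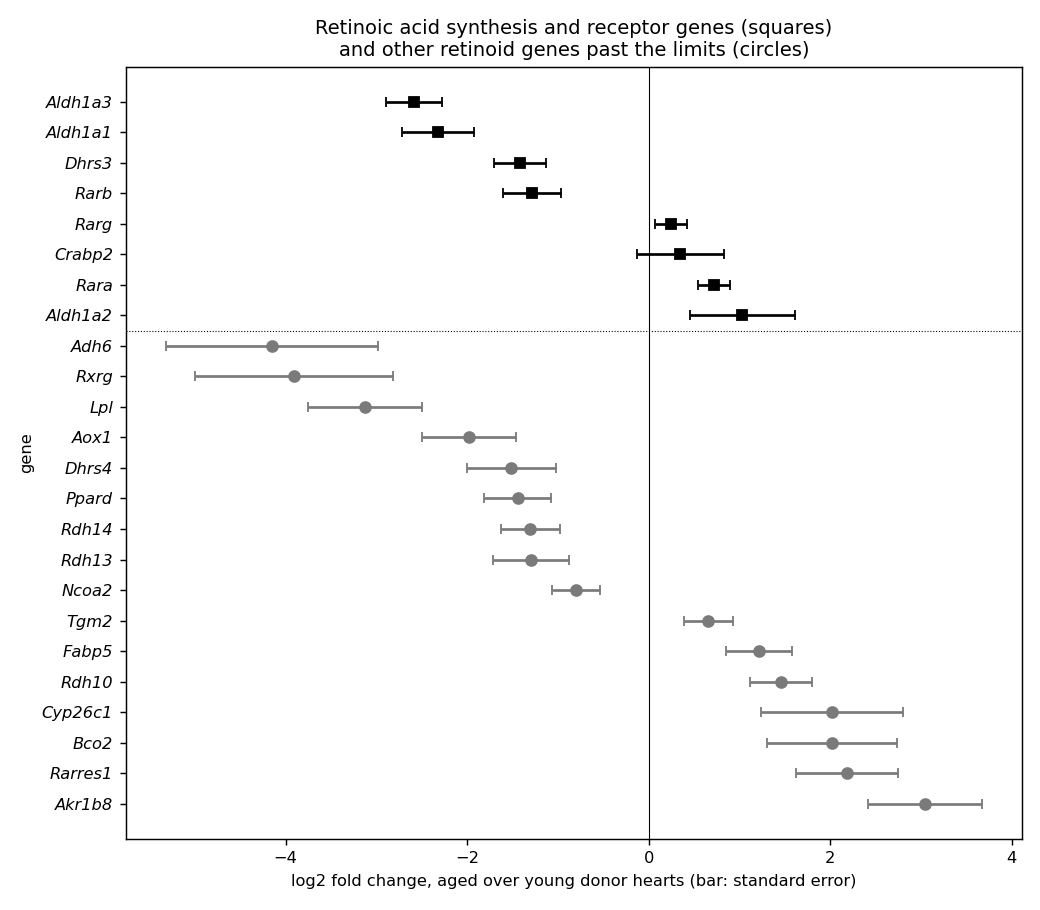
Log2 fold change of aged over young donor hearts with its standard error (bars) for the 8 fitted genes (squares) and for the 16 other retinoid genes past the limits (circles). The squares run from -2.59 for Aldh1a3 to 1.03 for Aldh1a2, and the circles from -4.15 for Adh6 to 3.04 for Akr1b8.

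The rest of the retinoid pathway was counted over 76 listed genes, of which 68 were in the table by symbol and 54 were tested. In aged donor hearts 7 rose past the limits, 9 fell and 38 were not past them, against 13.2% and 19.0% of all genes tested. Their median log2 fold change was -0.0034, and that of all genes tested 0.02. The shares of 13.2% and 19.0% are also the background for the counts of each list below.

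Of the 11 tested genes that interconvert retinol and retinaldehyde, 2 rose and 4 fell. Besides Rdh10, the aldo-keto reductase Akr1b8 rose, from 7.02, 6.29 and 21.2 CPM in young to 125, 46.7 and 114 CPM in aged donor hearts (log2 fold change 3.04, SE 0.63, adjusted p = 0.0916 in edgeR). The alcohol dehydrogenase Adh6 fell by 4.15 on the log2 scale from low levels (11.9, 7.57 and 1.98 CPM to 0.723, 0.455 and 0 CPM). Rdh14 fell by 1.31 and Rdh13, which lost its call in 5 of 13 alternative settings, by 1.3. Dhrs4, with the highest mean of the list over the 6 hearts at 43.3 FPKM, fell by 1.51 with overlapping groups, and Akr1b8 was above it in aged animals 3 and 7. Aldehyde oxidase Aox1, which can also oxidize retinaldehyde, fell by 1.98, from 6.59, 5.15 and 13.8 CPM to 2.76, 1.18 and 2.53 CPM, and in this gene young animal 15 was the highest heart.

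Of 7 tested carriers and uptake genes, 1 rose, the fatty acid and retinoic acid carrier Fabp5, which was also the most abundant of them at a mean of 221 FPKM. It was at 66.7, 62.1 and 134 CPM in young and 216, 239 and 156 CPM in aged donor hearts (log2 fold change 1.22, SE 0.36, adjusted p = 0.0949 in edgeR). Among 5 tested genes of retinyl ester storage and carotenoid cleavage, the carotenoid dioxygenase Bco2 rose by a log2 fold change of 2.02 (SE 0.72), a call lost in 3 of 13 alternative settings. Lipoprotein lipase Lpl, which frees retinyl esters and fatty acids from lipoproteins, fell from 3240, 3270 and 758 CPM to 303, 272 and 256 CPM. Its log2 fold change was -3.13 (SE 0.63, adjusted p = 0.0916 in edgeR), and it was the most abundant gene of the list at 304 FPKM.

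The enzymes of breakdown were all scarce. Cyp26b1 had 97, 93 and 68 reads in young and 169, 32 and 90 reads in aged donor hearts, with overlapping groups and a log2 fold change of -0.51 (SE 0.59). Cyp26c1 passed the limits as higher (log2 fold change 2.02, SE 0.78) on 2, 0 and 6 reads in young and 16, 15 and 15 reads in aged donor hearts, and it lost the call in 7 of 12 alternative settings. Cyp26a1, the member of the family best known as induced by retinoic acid, had 1 to 6 reads per heart and was not tested.

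Of the 4 partner and alternative receptors, 2 fell and 2 were not past the limits. Rxrg, the RXR gene of striated muscle, was at 110, 112 and 10.6 CPM in young animals 3, 13 and 15 and at 1.15, 8.76 and 5.59 CPM in aged animals 3, 4 and 7. It fell by 3.91 on the log2 scale (SE 1.09, adjusted p = 0.0923 in edgeR), and young animal 15 was near the aged donor hearts. Its share of the summed Rxr FPKM was 50.9%, 49.95% and 11.8% in the young and 1.24%, 7.38% and 6.12% in the aged donor hearts. Rxra, which had the highest mean over the 6 hearts at 35.1 FPKM but was below Rxrg in young animals 3 and 13, had a log2 fold change of 0.15 (SE 0.20) and Rxrb of -0.68 (SE 0.29), and neither was past the limits. Ppard, an alternative nuclear receptor for retinoic acid delivered by Fabp5, fell from 145, 173 and 67.0 CPM to 39.2, 55.3 and 47.1 CPM (log2 fold change -1.45, SE 0.37, adjusted p = 0.0916 in edgeR).

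Of 14 coregulators of these receptors 13 were not past the limits, and the coactivator Ncoa2 fell by 0.80 (SE 0.26, adjusted p = 0.104 in edgeR), a call lost in 6 of 13 alternative settings. The corepressor-associated deacetylase Hdac3, with the highest mean over the 6 hearts at 23.1 FPKM, had a log2 fold change of 0.03 (SE 0.18). Of 13 tested genes known to respond to retinoic acid elsewhere, 2 were past the limits and both rose, against 13.2% higher and 19.0% lower of all genes tested. By sign, 6 of the 13 had positive and 7 negative log2 fold changes, with a median of -0.11. Rarb and Dhrs3, which were lower, are counted among the 9 genes and not in this list. Rarres1, a gene named for its induction by a retinoid, went from 3.33, 1.97 and 4.75 CPM to 26.2, 12.3 and 7.40 CPM (log2 fold change 2.18, SE 0.57, adjusted p = 0.0916 in edgeR). The transglutaminase Tgm2, with the highest mean of the list over the 6 hearts at 231 FPKM, had a log2 fold change of 0.65 (SE 0.27) at the edge of the p limit and lost the call in 8 of 13 alternative settings.

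**Figure D4:**
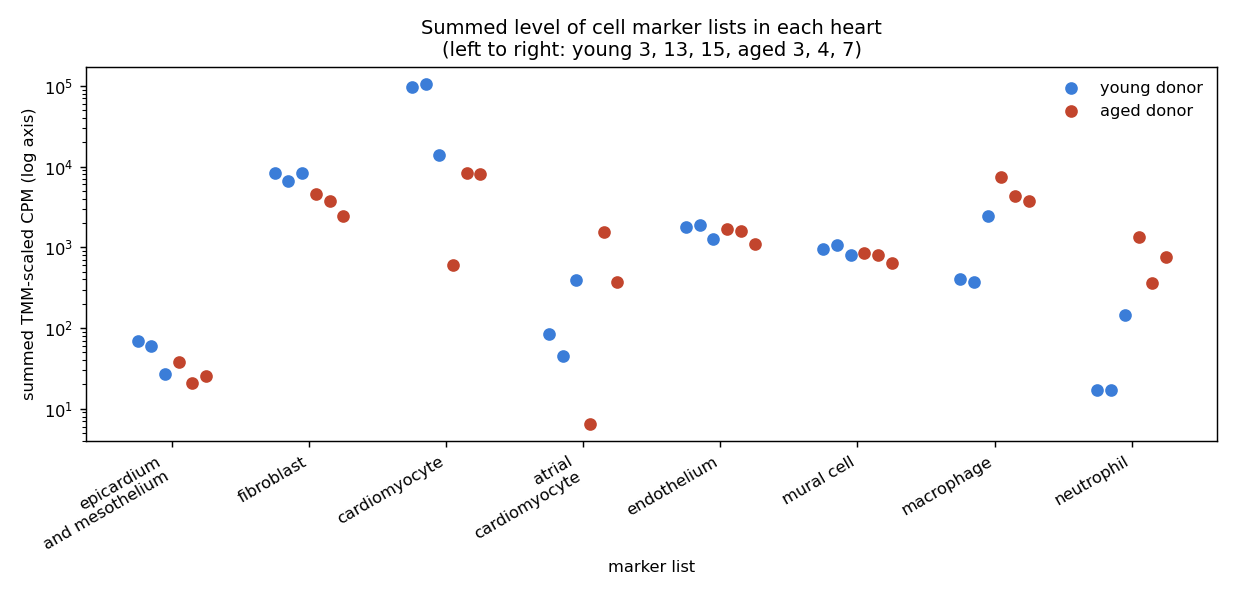
Summed TMM-scaled CPM of 8 cell marker lists in each heart on a log axis, with the hearts in the same order within each list. Young animal 15 lies between the other young and the aged donor hearts for cardiomyocyte, macrophage and neutrophil markers, and the fibroblast list runs from 6690 to 8380 CPM in young and from 2417 to 4625 CPM in aged donor hearts.

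Among markers of the cells that could carry these transcripts, the sums of some lists differed between the groups and those of others overlapped. Of all genes tested, 13.2% were past the limits and higher and 19.0% past them and lower, the background for the counts given here. Summed fibroblast markers were 6690 to 8380 CPM in young and 2417 to 4625 CPM in aged donor hearts, and 3 of 8 tested were past the limits, all lower. Col1a1 and Col3a1 were among them, while the fibroblast genes Pdgfra (log2 fold change 0.81) and Tcf21 (-0.06) were not past the limits. In 5 of the 8 the groups overlapped, and Col3a1 alone was at 3690 to 4770 CPM in young and 1080 to 2010 CPM in aged donor hearts. Cardiomyocyte markers summed to 14100 to 106500 CPM in young and 604 to 8251 CPM in aged donor hearts, with 5 of 12 past the limits and lower. In 10 of 12 every aged donor heart was below every young donor heart, against 20.6% of all genes tested. Neutrophil markers summed to 17.1 to 144 CPM in young and 356 to 1355 CPM in aged donor hearts, with 8 of 9 past the limits and higher, and macrophage markers to 374 to 2411 CPM and 3798 to 7339 CPM, with 5 of 10 past the limits and higher.

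Epicardial and mesothelial markers were listed because Aldh1a2 is known from those cells. Their sum was 68.9, 60.7 and 26.8 CPM in young animals 3, 13 and 15 and 37.6, 20.8 and 25.6 CPM in aged animals 3, 4 and 7, and Wt1, Tbx18, Msln and Krt8, the 4 tested of 10, had log2 fold changes of -0.92, -0.65, -1.26 and -0.92. Of the hearts with the most Aldh1a2, aged animal 3 had the highest sum of the aged donor hearts and aged animal 4 the lowest. Wt1 alone was at 40, 41.3 and 11.6 CPM in young animals 3, 13 and 15. In aged animals 3, 4 and 7 it was at 24, 11 and 14.1 CPM. Msln had 101, 2 and 4 reads in young animals 3, 13 and 15 and 60, 15 and 2 reads in aged animals 3, 4 and 7. Upk3b had reads in young animal 3 only. Summed endothelial markers (1264 to 1870 CPM in young, 1093 to 1673 CPM in aged) overlapped between the groups. So did summed mural cell markers (795 to 1068 and 636 to 847 CPM). Adipocyte (70.7 to 374 and 24.9 to 122 CPM, Adipoq at 0) and red blood cell sums (725 to 5756 and 245 to 3093 CPM) overlapped too. Single markers did differ. Of 8 tested endothelial markers Esam was past the limits and higher (log2 fold change 0.79) and Emcn lower (-1.34). Of 7 tested mural cell markers only Rgs5 was past them, and lower (-2.34). Of 2 tested adipocyte markers Cfd was higher (1.58). Of all genes tested, 13.2% were past the limits and higher and 19.0% lower. T cell markers were few, 5.87 to 7.99 CPM in young and 11.2 to 16.4 CPM in aged donor hearts. The part of these cells in the levels of the 9 genes was not tested beyond the fit that follows.

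A further fit carried the mean log2 CPM of the 12 cardiomyocyte markers as a covariate. In it Aldh1a3 had a log2 fold change of -2.54 and Dhrs3 of -1.42, near their values without it. Aldh1a1 went from -2.32 to -1.48, Rarb from -1.29 to -1.04, Rara from 0.72 to 0.46 and Aldh1a2 from 1.03 to 0.45. Aldh1a1, Aldh1a3 and Dhrs3 were still past the limits in that fit, and Rara and Rarb were not. Rarg and Crabp2 changed sign, to -0.04 and -0.42. Of the 15 other retinoid genes past the limits with no overlap between the groups, Akr1b8, Lpl and Aox1 kept their call in that fit and 12 lost it: Rdh10 (1.29), Rxrg (-1.11), Ppard (-0.77), Fabp5 (0.83), Rarres1 (0.87), Bco2 (0.86), Adh6 (-4.76), Rdh14 (-0.75), Rdh13 (-0.43), Ncoa2 (-0.61), Tgm2 (0.64) and Cyp26c1 (1.76), each given with its log2 fold change there. Over all genes tested, 759 were past the limits in that fit, against 4436 without the covariate. The cardiomyocyte markers themselves differ between the groups, so in this fit they and donor age cannot be fully told apart.

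**Figure D5:**
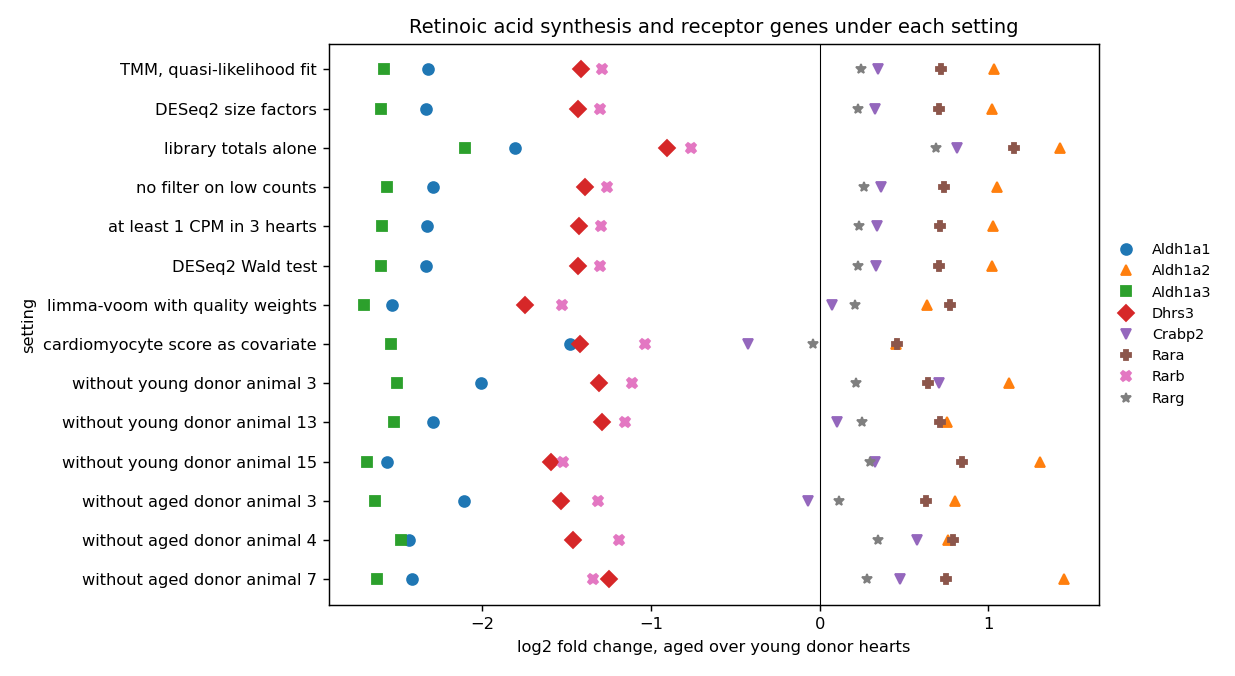
Log2 fold change of aged over young donor hearts for the 8 fitted genes (symbols) under each way of scaling, filtering and testing and with each heart left out (rows). Aldh1a1, Aldh1a3, Dhrs3 and Rarb stay left of 0 and Rara and Aldh1a2 right of it in every row, and Crabp2 and Rarg cross 0.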

How the data were processed

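RNA-Seq of poly(A)-selected RNA was available for 3 young and 3 aged donor hearts. The authors deposited 1 table with the raw read count of each gene in each heart, without normalization, and FPKM values, which relate the count to the listed length of the gene and to the library total (checked on 133500 values, with 1 exception). The deposited lengths, an other unit, are in bases. The submitters' processing notes name HISAT2 2.0.5, StringTie 1.3.3b, featureCounts 1.5.0-p3, DESeq2 1.16.1, GATK 3.7 and the build Rnor_6.0. The use of strand in counting is not given in the sources used here.

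The fit was run with edgeR 4.0.16 under R 4.3.3 (filterByExpr, TMM, glmQLFit and glmQLFTest, no covariate), and Python 3.11.15 was used for summaries and plots. Standard errors were taken as the size of the log2 fold change over the root of its F statistic. Adjusted p-values follow Benjamini and Hochberg over all 13784 genes tested. Log2 CPM used a prior count of 2. A floor of 3 counts was used, and it covers counting error only. Beyond their animal numbers the labels do not say how the libraries of a group relate, so p-values measure the spread between these libraries only. The fit was tested on simulated data. Alternatives were DESeq2 1.42.0, limma 3.58.1 (voom with quality weights), other scalings and filters, a cardiomyocyte covariate and leaving out each heart. Genes were named by a rule: the 9 genes, up to 4 non-overlapping genes past the limits and the gene with the highest mean FPKM of each retinoid list and of the other aldehyde dehydrogenases, the 3 closest profiles to each Aldh1a and Rar gene, and markers where a result turns on them. Aldh6a1 and Aldh9a1 (groups overlap), Rdh13 (the fifth by size in its list), Cyp26a1, Aldh1a7 and Rxrb were added after their values were seen. The 9 genes and all lists were chosen with earlier results of these data known. Of the listed symbols, Cd36, Stra6l, Adh1, Adh4, Rdh7, Rdh16, Kat2b, Hoxa5, Aldh4a1 and 3 markers (Col1a2, Pecam1, Hbb-b1) are not analysed here. Promoters are RefSeq entries on GRCr8 and matched all 9 symbols. An exact permutation test of 1 value, two-sided, cannot go below 0.1 with so few hearts, so none was run.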

Additional observations from a re-analysis of the deposited data

How the results depend on the processing

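Scaling by library totals alone gave 3147 genes higher and 1441 lower, 2 of the 9 genes higher and 11 retinoid list genes higher. The log2 fold changes were then 1.15 for Rara, 0.69 for Rarg, 1.43 for Aldh1a2 and 0.82 for Crabp2. They were -0.90 for Dhrs3, -0.76 for Rarb, -1.81 for Aldh1a1 and -2.10 for Aldh1a3. The size of these fold changes thus depends on the scaling. Limma-voom gave 7504 genes past the limits, 3689 of them higher, and 13 retinoid list genes higher and 18 lower. The cardiomyocyte covariate left 759 genes (347 higher, 412 lower), 0 of the 9 genes higher, and 3 retinoid list genes higher and 2 lower. With an adjusted p-value in the limits all counts were 0 in edgeR. Leaving out each heart gave 2432 to 7214 genes, 817 to 3802 higher and 1615 to 3412 lower, with 1 to 2 of the 9 genes higher and 4 to 4 lower, and 3 to 14 retinoid list genes higher and 6 to 14 lower. For all genes and for the retinoid list the lowest of these counts came without young animal 3 and the highest without young animal 15. Without young animal 13 there were 2495 genes past the limits, and without aged animal 3 there were 1048 genes and 4 retinoid list genes higher. The second of the 9 genes to be higher was Aldh1a2 without aged animal 7 and Rarg with totals alone.

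Of 104 values of the 8 fitted genes under alternatives, 101 kept their sign. The others were Rarg and Crabp2 with the covariate and Crabp2 without aged animal 3. These genes were chosen with results of the same hearts known, and each alternative reuses those hearts, so their kept signs are not separate support. The 15 other retinoid genes were picked as past the limits without overlap in the edgeR fit of these same hearts. Of their 194 values under alternatives, 157 kept their call, 37 lost it and 0 changed sign. That choice favours kept signs, so the 0 is not separate support. The cause of these shifts was not tested. No paired analysis was possible because the groups came from different donor rats, and an animal number found in both is not a pair. Aldh1a3, Crabp2, Stra6 and the Cyp26 genes rest on few reads, which limits their precision. The values cover 6 hearts, with 1 left ventricular sample each, and hearts without transplantation are not analysed here.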

Other observations

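The other aldehyde dehydrogenases, which act on aldehydes from lipids, amino acids and other sources, were counted in the same fit. Of 12 tested, 1 rose and 4 fell past the limits in aged donor hearts, against 13.2% higher and 19.0% lower of all genes tested. Their median log2 fold change was -0.37. Aldh3a1, an enzyme of aldehyde detoxification best known from the cornea and stomach, was at 2.06, 1.59 and 5.86 CPM in young animals 3, 13 and 15 and at 0.328, 0.152 and 0.192 CPM in aged animals 3, 4 and 7. It fell by 3.79 on the log2 scale (SE 0.68, adjusted p = 0.0916 in edgeR), on 4 to 10 reads per aged donor heart. Its highest heart was young animal 15, unlike Aldh1a1, Aldh1a3 and Dhrs3, for which that animal was the lowest of the young donor hearts.

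Aldh5a1, the mitochondrial enzyme of GABA breakdown, fell by 2.98 (SE 0.74, adjusted p = 0.0916 in edgeR), from 107, 127 and 21.6 CPM to 4.93, 14.1 and 13.4 CPM. Aldh6a1, of valine breakdown, and Aldh9a1, of carnitine synthesis, fell by 2.74 and 1.11 with overlapping groups. Aldh3b1, which oxidizes lipid aldehydes, rose from 5.14, 3.12 and 12.8 CPM to 29.3, 23.8 and 17.3 CPM (log2 fold change 1.73, SE 0.54, adjusted p = 0.0983 in edgeR). Aldh2, the main mitochondrial enzyme for acetaldehyde and lipid aldehydes and the most abundant of the list at 152 FPKM, was at 492, 463 and 236 CPM in young and 115, 247 and 270 CPM in aged donor hearts. Its groups overlapped, and it was not past the limits (log2 fold change -0.91, SE 0.44).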
